A study of Mus musculus with 6 samples.

Results

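Genes that carry a cell through DNA replication and division were compared between the tissue above and the tissue below the aorta of the mouse embryo. The set was a list of 48 genes named by their known function, and drawn up when earlier results of these data were known: 19 genes of S phase, 23 of G2 and mitosis (G2/M), and the 6 cyclin genes of the D, E and A types. The array's platform table named 47 of them among 24973 probe sets, the exception being Ccnb1, so 22 G2/M genes were measured. All 47 had a mean at or above the brightness level of 4.52 (log2, the median of all probe sets) and were among the 12028 genes tested. The samples were C57Bl/6 embryos at embryonic day 11.5, with no treatment or engineered allele named in the labels. Dorsal tissue, between notochord and aortic roof, and ventral tissue, under the aorta, were laser-dissected from sections of the same embryos, and each was measured on 3 Affymetrix arrays. Such pieces of tissue hold several cell types, so that a lower level in bulk cannot tell fewer cycling cells from less RNA per cycling cell.

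In the mammalian cell cycle, D-type cyclins link outside signals to the kinases that inactivate the retinoblastoma protein, which frees E2F factors to switch on the S phase genes. E-type and A-type cyclins then drive the firing of replication origins that were licensed by the MCM helicase. The mitotic genes follow as a later wave, under the DREAM, MuvB and FOXM1 complexes, and their products build the spindle, hold the checkpoint and separate the chromosomes. Mesenchyme of the midgestation embryo divides rapidly, and the aortic floor is also where blood stem cells emerge.

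Cell cycle genes tended to read slightly lower in ventral than in dorsal tissue, in each phase, and none of them passed the test of significance alone. Of 47 genes 40 had a negative log2 fold change (ventral minus dorsal), or 85.1%, against 52.3% of all genes tested and 56.0% of the 1707 genes at or above the members' median level of 7.80. The median over the 47 was −0.23, against −0.01 over all genes tested. In limma 0 of 47 passed an adjusted p of 0.05, which 0.515% of all genes did, and the lowest adjusted p was 0.169. At an unadjusted p under 0.05 there were 4 genes (8.51%), Ccnd1, Ccnd2, Ccna2 and Ttk, where 10.7% of all genes lay under that limit in either direction. All 4 were lower in ventral tissue, a direction that held 5.14% of all genes at that limit. Without the replicate number as a block the same limit was met by 7 members, but the share of all genes in that fit was not counted. The 7 are therefore not comparable with the shares above. Again 0 passed after adjustment.

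The arrays of the tissues did not overlap for 12 of the 47 genes, each lower in ventral tissue (25.5%, where 7.88% of all genes tested did the same). No member was higher on all ventral arrays than on all dorsal ones, which 7.50% of all genes were. In all 3 same-numbered pairs 21 members (44.7%) were lower in ventral tissue, as were 16.9% of all genes, and Birc5 alone was higher in all 3. The members are regulated together and are not independent of each other, so these shares describe the list and are given without a test. The shares of all genes for separated arrays and for pairs were not matched to the members' level.

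The size of the difference depended on the replicate 3 arrays. In pair 3 the member median was −0.37 and 44 of 47 genes were lower in ventral tissue, in pair 1 it was −0.16 with 35 genes, and in pair 2 it was −0.10 with 28 genes. Over all genes tested, the median was −0.02, 0.00 and −0.02 in pairs 1, 2 and 3. The array medians were already alike (4.49 to 4.55), so these values cannot show whether pair 3 stood out among other genes. Averaged over the 47 genes relative to each gene's own mean, dorsal 3 was the highest array (0.24, with dorsal 1 at 0.06 and dorsal 2 at 0.04) and ventral 3 the lowest (−0.19, with ventral 1 at −0.12 and ventral 2 at −0.03). These averages did not overlap between the tissues, but dorsal 2 and ventral 2 lay close together. Without replicate 3 in both tissues 32 of 47 genes were negative and the median was −0.13. Leaving out dorsal 3 alone gave 35 genes and −0.14, and leaving out ventral 3 alone gave 36 genes and −0.17 (both without the block).

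**Figure D1:**
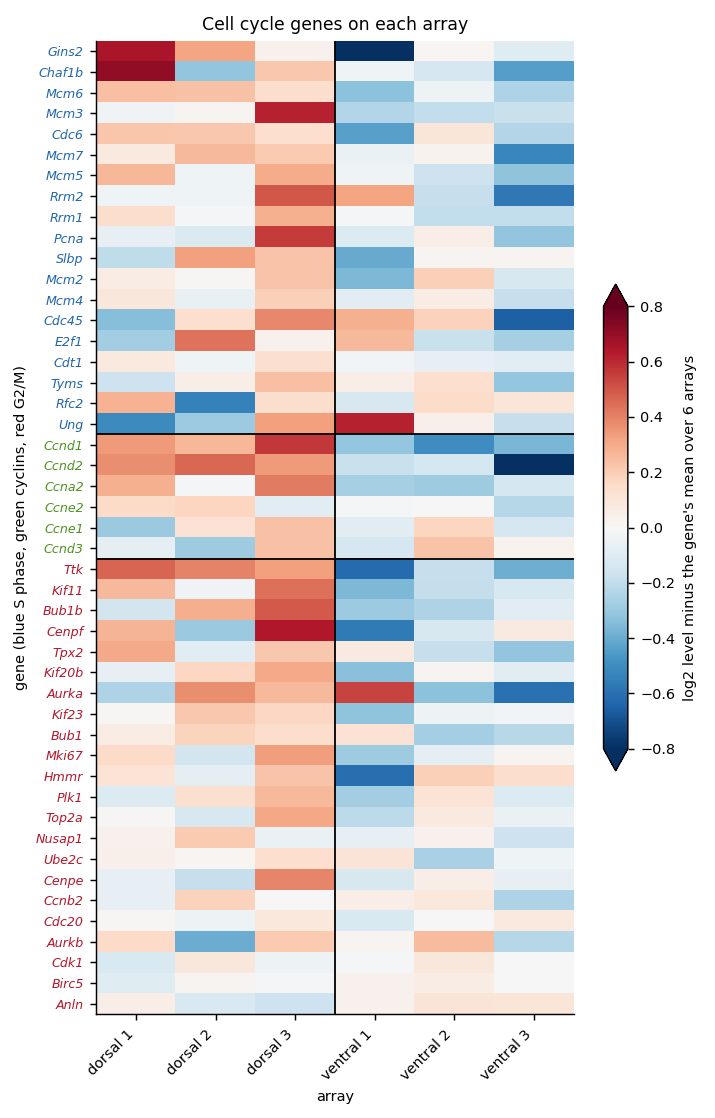
Level of each of 47 cell cycle genes on each of 6 arrays, as log2 minus the gene's own mean over the arrays (colour, red above and blue below). Rows are grouped by phase and ordered by the ventral minus dorsal difference. Dorsal 3 is the reddest column (average 0.24) and ventral 3 the bluest (average −0.19), while ventral 2 (−0.03) is close to the gene means.

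All 3 groups of members had a negative median. The S phase genes had a median log2 fold change of −0.25 (17 of 19 negative), the G2/M genes one of −0.18 (18 of 22 negative), and the 6 cyclins one of −0.31 (5 of 6 negative). Across the 3 pairs the S phase median was −0.18, −0.12 and −0.47 (SD 0.19), the G2/M median −0.13, −0.05 and −0.36 (SD 0.16), and the cyclin median −0.36, −0.23 and −0.46 (SD 0.12). The order of the pairs was the same in each phase, with pair 3 lowest and pair 2 nearest to 0. Within a pair the G2/M median lay above the S phase median by 0.05, 0.07 and 0.11, and by 0.07 in the fit over all pairs (SD 0.03 over pairs). Without replicate 3 that gap was 0.01. Non-overlapping arrays, lower in ventral tissue, were found for 6 of 19 S phase genes (31.6%), 3 of 22 G2/M genes (13.6%) and 3 of 6 cyclins. Of all genes tested 7.88% had such arrays, and the G2/M share lay closest to that.

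**Figure D2:**
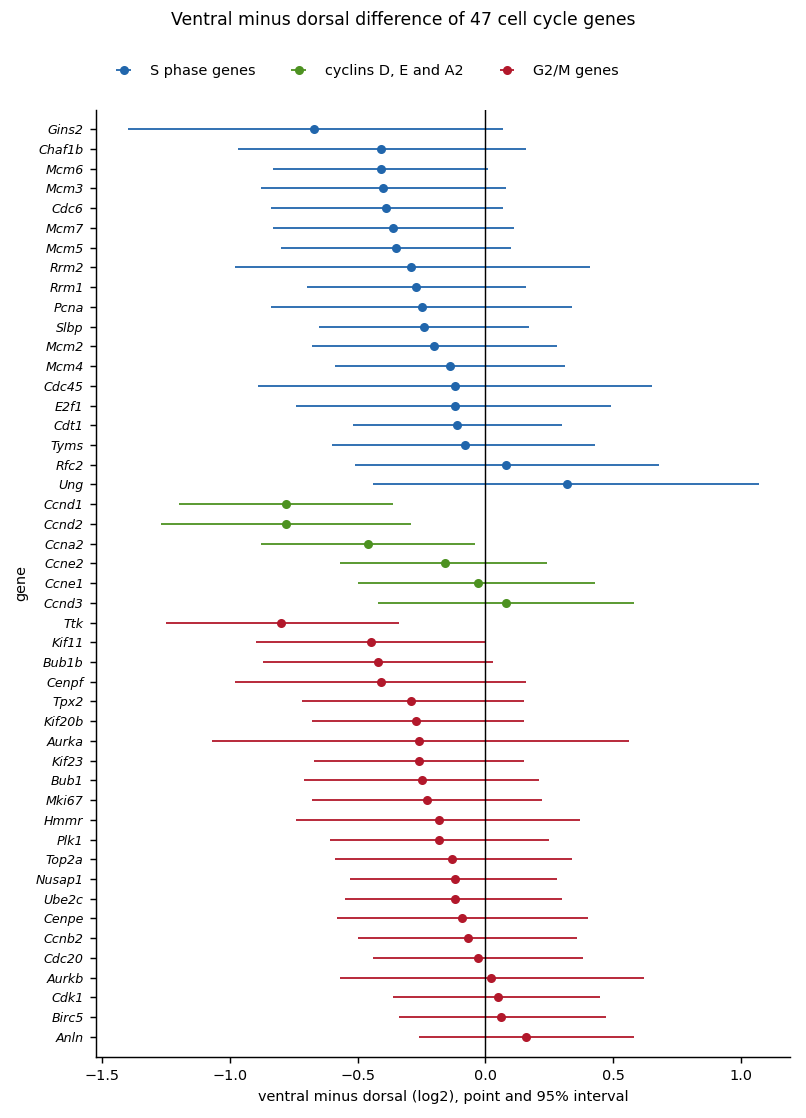
Ventral minus dorsal difference (log2) of 47 cell cycle genes, with the 95% interval of the limma fit, coloured by phase. Most points lie left of 0, and only the intervals of Ccnd1, Ccnd2, Ccna2 and Ttk exclude it before adjustment for the number of genes tested.

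Among the cyclins, Ccnd1 and Ccnd2 had the greatest differences. Ccnd1, a D-type cyclin induced by growth factors, read 8.59, 8.51 and 8.81 on dorsal arrays 1 to 3 and 7.94, 7.75 and 7.88 on the ventral ones (all log2 levels). Every dorsal value lay above every ventral one, and dorsal tissue was 1.72-fold higher (log2 fold change −0.78 ± 0.17 SE, 95% interval −1.20 to −0.36, adjusted p = 0.169 in limma). Ccnd2, its close relative, read 10.05, 10.14 and 10.02 in dorsal and 9.50, 9.54 and 8.83 in ventral tissue. The tissues again did not overlap, ventral 3 was the lowest array, and the difference was −0.78 ± 0.20 (adjusted p = 0.231). Over the alternative settings the adjusted p ran from 0.0822 to 0.400 for Ccnd1 and from 0.0955 to 0.517 for Ccnd2, so neither passed under any of them.

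Ccnd3, the remaining D-type cyclin, had no settled direction. It read 6.21, 6.00 and 6.52 in dorsal and 6.15, 6.51 and 6.31 in ventral tissue, with overlapping arrays and a log2 fold change of 0.08 ± 0.21 (95% interval −0.42 to 0.58). It was lower in ventral tissue in pairs 1 and 3 (−0.06 and −0.21) and higher in pair 2 (0.52), and the fit without replicate 2 gave −0.13. The difference between the fold changes of Ccnd1 and Ccnd3 was −0.86, at −0.59, −1.27 and −0.72 in the 3 pairs. That between Ccnd2 and Ccnd3 was also −0.86, at −0.48, −1.12 and −0.98. In an exact two-sided permutation test over arrays each gave p = 0.10, the smallest that 3 against 3 arrays allow, and 0.15 after adjustment over the 3 pairs of D-type cyclins compared. Ccnd1 and Ccnd2 differed from each other by 0.00 in fold change (exact p = 1.00).

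Ccna2, the cyclin of S phase and early mitosis, read 9.44, 9.14 and 9.57 in dorsal and 8.89, 8.87 and 9.01 in ventral tissue. The arrays did not overlap, and the log2 fold change was −0.46 ± 0.18 (adjusted p = 0.427). The E-type cyclins, partners of Cdk2 at the start of S phase, were closer to 0, with Ccne2 at −0.16 ± 0.17 and lower in ventral tissue in all 3 pairs, and Ccne1 at −0.03 ± 0.19. Their 95% intervals were −0.57 to 0.24 and −0.50 to 0.43.

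**Figure D3:**
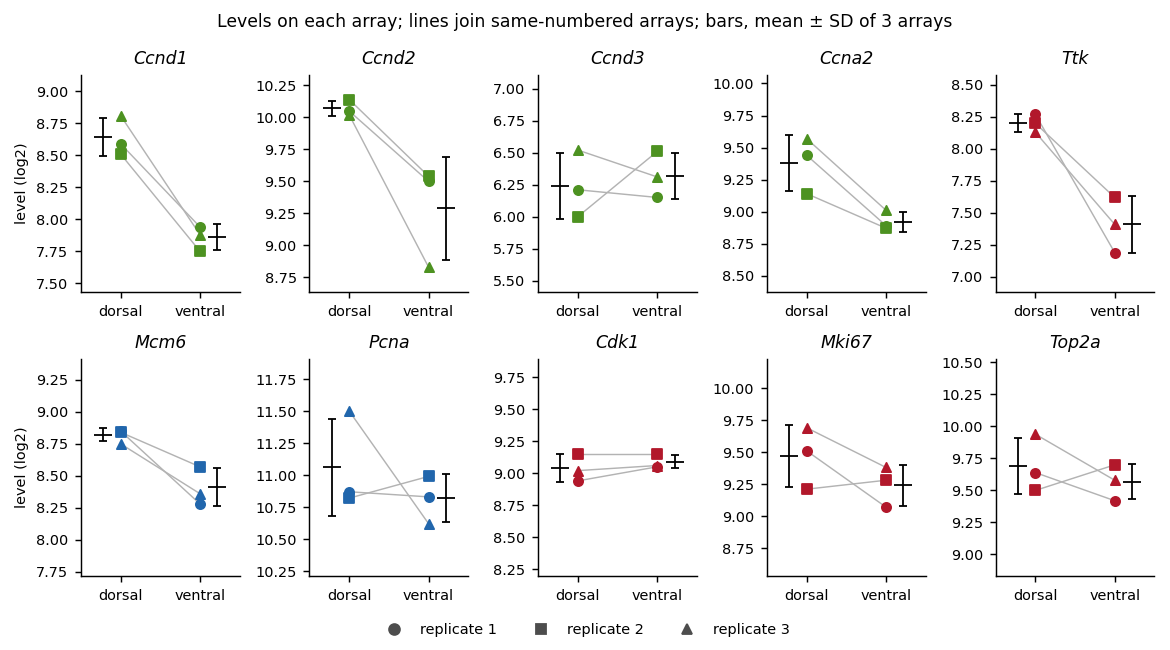
Log2 level of 10 cell cycle genes on each dorsal and ventral array (symbols, replicate number), with lines between same-numbered arrays and black bars for the mean ± SD of 3 arrays. Every panel spans the same range. Ccnd1, Ccnd2, Ccna2, Ttk and Mcm6 have no ventral array as high as a dorsal one, whereas Cdk1 lies between 8.94 and 9.15 in both tissues.

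Genes that license and fire replication origins were more even in direction than the other S phase genes. All 10 had negative log2 fold changes (median −0.35), 7 were lower in ventral tissue in all 3 pairs, and the arrays of 6 did not overlap. Of all genes tested 52.3% were negative, 16.9% were lower in all 3 pairs and 7.88% had such separated arrays. The size varied between the pairs, as in Gins2 (−1.58 to −0.13) and Cdc45 (0.63 to −1.04). In pair 2 Mcm2, Mcm4 and Cdc45 were higher in ventral tissue. The 10 genes comprise the 6 subunits of the MCM helicase, the loading factors Cdc6 and Cdt1, and Cdc45 and Gins2, which turn the helicase into its active form. The lowest adjusted p in the group was 0.477, for Mcm6. Mcm6 read 8.85, 8.84 and 8.75 in dorsal and 8.28, 8.57 and 8.36 in ventral tissue (−0.41 ± 0.18).

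The other MCM subunits with separated arrays rested more on replicate 3, without which Mcm3 was at −0.21, Mcm5 at −0.22 and Mcm7 at −0.18, while Mcm6 was at −0.42. Mcm3 read 7.56, 7.61 and 8.20 in dorsal and 7.35, 7.39 and 7.41 in ventral tissue (−0.40 ± 0.20, adjusted p = 0.550), with dorsal 3 the highest array. Mcm5 read 7.57, 7.27 and 7.60 against 7.27, 7.14 and 6.98 (−0.35 ± 0.19, adjusted p = 0.581), and its lowest dorsal and highest ventral arrays were equal to 2 decimals. Mcm7 read 7.63, 7.81 and 7.76 against 7.50, 7.58 and 7.03 (−0.36 ± 0.20, adjusted p = 0.596). Mcm2 (−0.20 ± 0.20) and Mcm4 (−0.14 ± 0.19) overlapped between the tissues, and in pair 2 both were higher in ventral tissue.

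Cdc6, which loads the helicase onto origins, read 6.14, 6.13 and 6.05 in dorsal and 5.48, 6.01 and 5.68 in ventral tissue (−0.39 ± 0.19, adjusted p = 0.542). Gins2, with the most negative fold change of the S phase genes, was uneven across the pairs. Dorsal arrays read 8.30, 7.96 and 7.68 and ventral arrays 6.72, 7.66 and 7.55, which gave −0.67 ± 0.31 (adjusted p = 0.510), with pair 1 at −1.58, pair 2 at −0.30 and pair 3 at −0.13. Without replicate 1 Gins2 was at −0.21 and Cdc6 at −0.25. Cdt1 (−0.11 ± 0.17) was lower in all 3 pairs by a small amount, and Cdc45 (−0.12 ± 0.32) ran from 0.63 in pair 1 to −1.04 in pair 3.

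The remaining S phase genes were less even in direction, and none had separated arrays. Pcna, the sliding clamp of the replication fork, read 10.87, 10.82 and 11.50 in dorsal and 10.83, 10.99 and 10.62 in ventral tissue. Its difference of −0.25 ± 0.25 (adjusted p = 0.806) came from pair 3 and was 0.07 without it. Among the enzymes that supply nucleotides, the ribonucleotide reductase subunits Rrm1 and Rrm2 were at −0.27 ± 0.18 and −0.29 ± 0.29, and thymidylate synthase, Tyms, at −0.08 ± 0.21. Only Rrm1 of these was lower in ventral tissue in all 3 pairs.

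Slbp, which binds the stem-loop of histone messages, was at −0.24 ± 0.17 and also lower in all 3 pairs. Chaf1b, a subunit of the factor that places histones on new DNA, was at −0.41 ± 0.23, but higher in ventral tissue in pair 2. E2f1, a factor that activates many of these genes, was at −0.12 ± 0.25. The positive values were those of Ung, a uracil-removing repair enzyme, and the clamp loader subunit Rfc2. Ung read 4.82, 5.04 and 5.66 in dorsal and 5.95, 5.37 and 5.15 in ventral tissue (0.32 ± 0.31; −0.09 without replicate 1). Rfc2 read 6.96, 6.14 and 6.82 against 6.55, 6.83 and 6.78 (0.08 ± 0.25; −0.22 without replicate 2). Both overlapped widely and have no settled direction.

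The engine of mitosis, Cdk1 with its B-type cyclin, was nearly level between the tissues. Cdk1 read 8.94, 9.15 and 9.02 in dorsal and 9.05, 9.15 and 9.06 in ventral tissue, so that the difference was 0.05 ± 0.17, with a 95% interval of −0.36 to 0.45. Ccnb2 was at −0.07 ± 0.18 (−0.50 to 0.36). Partners of the anaphase-promoting complex were level as well, with its activator Cdc20 at −0.03 ± 0.17 and its ubiquitin-conjugating enzyme Ube2c at −0.12 ± 0.18. These intervals still allow differences as large as the S phase median, so a like level is not shown.

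Of the mitotic kinases and checkpoint genes 5 of 7 were negative, and Ttk had the most negative fold change of all members. Ttk, also called Mps1, is the kinase that starts the spindle checkpoint. It read 8.27, 8.20 and 8.13 in dorsal and 7.19, 7.62 and 7.41 in ventral tissue, 1.74-fold higher in dorsal tissue (−0.80 ± 0.19, 95% interval −1.25 to −0.34, adjusted p = 0.188). The gap between the tissues was wider than the spread within either. Over the alternative settings its adjusted p ran from 0.116 to 0.398.

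The checkpoint partners of Ttk were less far apart. Bub1b was at −0.42 ± 0.19 (adjusted p = 0.496) and lower in all 3 pairs, and Bub1 at −0.25 ± 0.19. Plk1, a kinase of mitotic entry and spindle assembly, was at −0.18 ± 0.18. Aurka, the kinase of spindle poles, had the widest error of the members (−0.26 ± 0.34), with pair 1 at 0.79 and pair 3 at −0.86. Aurkb and Birc5, subunits of the chromosomal passenger complex, were at 0.02 ± 0.25 and 0.06 ± 0.17.

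Among 9 genes of spindle, kinetochore and cytokinesis 8 were negative, with a median of −0.26. Kif11, the motor that pushes the spindle poles apart, read 8.50, 8.21 and 8.68 in dorsal and 7.88, 8.05 and 8.11 in ventral tissue (−0.45 ± 0.19, adjusted p = 0.464). Kif23, a motor of the central spindle, read 8.14, 8.35 and 8.30 against 7.81, 8.09 and 8.11 (−0.26 ± 0.17, adjusted p = 0.673). In both genes every dorsal array was above every ventral one.

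Kif20b (−0.27 ± 0.17), the spindle assembly factor Tpx2 (−0.29 ± 0.18) and the microtubule-binding Nusap1 (−0.12 ± 0.17) were lower in ventral tissue in all 3 pairs, with overlapping arrays. The kinetochore genes Cenpf (−0.41 ± 0.24) and Cenpe (−0.09 ± 0.20) and the hyaluronan receptor and spindle gene Hmmr (−0.18 ± 0.23) were each higher in ventral tissue in pair 2. Anln, the actin-binding protein of the cleavage furrow, was the one positive gene of the group (7.72, 7.54 and 7.50 in dorsal and 7.70, 7.77 and 7.76 in ventral tissue; 0.16 ± 0.17, adjusted p = 0.835). It overlapped between the tissues only through dorsal 1.

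The usual proliferation markers gave small differences. Mki67, the Ki-67 antigen that coats mitotic chromosomes, read 9.51, 9.21 and 9.69 in dorsal and 9.07, 9.28 and 9.38 in ventral tissue (−0.23 ± 0.19, 95% interval −0.68 to 0.22, adjusted p = 0.755). Top2a, the topoisomerase that untangles sister chromatids, read 9.64, 9.50 and 9.94 against 9.42, 9.70 and 9.58 (−0.13 ± 0.19, adjusted p = 0.886). Both overlapped, and in pair 2 both were higher in ventral tissue.

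Genes of the same pathway outside the members were given by 7 further lists, of which 124 genes were tested. Of these 91 were negative, with a median of −0.14, and 0 passed after adjustment. At an unadjusted p under 0.05 there were 8 (6.45%), a smaller share than the 10.7% of all genes in either direction. All 8 were lower in ventral tissue, a direction that held 5.14% of all genes at that limit. The arrays of 14 did not overlap, each lower in ventral tissue (11.3%, against 7.88% of all genes). Most genes were negative in the lists nearest to the S phase and G2/M members: 25 of 32 other origin and fork genes were negative (median −0.22), as were 30 of 38 other spindle and chromosome genes (median −0.14) and 15 of 20 switches of mitotic entry and exit (median −0.17). In the origin list the licensing inhibitor Gmnn (−0.53 ± 0.18, adjusted p = 0.363) and the GINS subunit Gins3 (−0.50 ± 0.18, adjusted p = 0.377) had the lowest p. In the others these were the checkpoint protein Mad2l1 (−0.52 ± 0.17) and the phosphatase Cdc25c (−0.41 ± 0.18), and the cohesin protector Sgo1 (−0.51 ± 0.17) and the spindle protein Spag5 (−0.42 ± 0.18), with adjusted p from 0.348 to 0.489.

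Genes for brakes on the cycle were mixed in direction. Of 8 CDK inhibitor genes 3 were negative and 5 positive (median 0.08). Cdkn1a, Cdkn2a, Cdkn2b, Cdkn2c and Cdkn2d had tissue means of only 4.50 to 5.17, near the brightness level of 4.52, so this median rests largely on dim genes. The lowest p was that of Cdkn1b, the inhibitor p27, at −0.57 ± 0.17 (adjusted p = 0.302), with 5.98, 6.30 and 6.73 in dorsal and 5.55, 5.64 and 6.12 in ventral tissue, and the next was Cdkn2c at 0.20 ± 0.18 (adjusted p = 0.794). Rb1, the retinoblastoma gene, read 7.06, 7.26 and 7.81 in dorsal and 6.46, 6.10 and 7.06 in ventral tissue (−0.84 ± 0.19, adjusted p = 0.179), and Rbl1 of the same family was at −0.23 ± 0.20. In the Rb1 values dorsal 1 lay above ventral 3 only beyond the second decimal. Of 7 genes for G1 kinases and pocket proteins 4 were negative (median −0.10).

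Genes for the factors that control the cycle were also listed. Of 8 other E2F and DP genes 5 were negative, with a median of −0.04, and E2f8 and E2f3 were both at −0.15 ± 0.19. Of 11 genes for DREAM and mitotic transcription factors 9 were negative (median −0.19). The lowest p were those of the MuvB subunits Lin9 (−0.64 ± 0.26, adjusted p = 0.451) and Lin37 (−0.41 ± 0.21, adjusted p = 0.560), and Lin52 was at −0.50 ± 0.36.

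**Figure D4:**
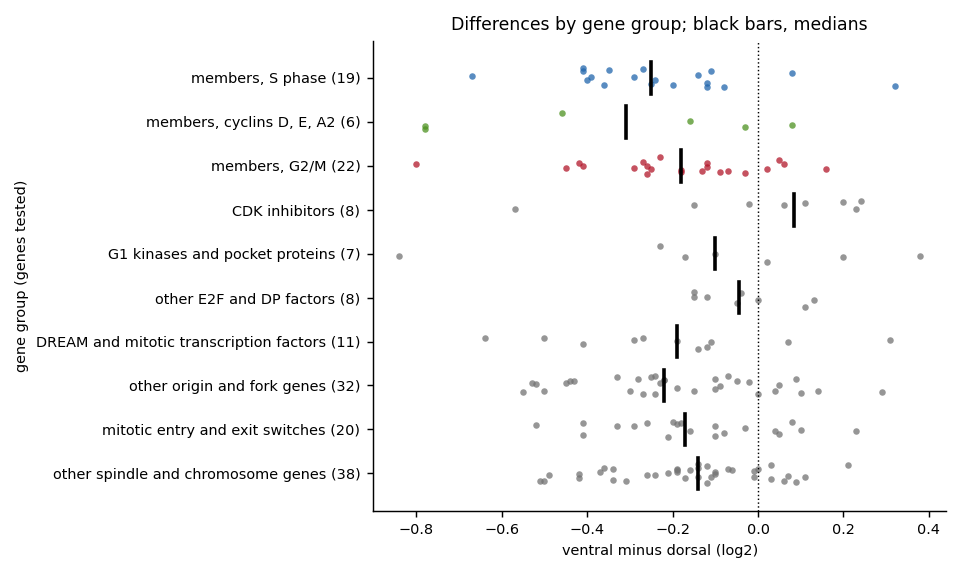
Ventral minus dorsal difference (log2) of each gene tested (points) and the group median (black bar), for the members by phase and for 7 further lists of the pathway. Medians are −0.25, −0.31 and −0.18 in the members' groups, and 0.08 in the CDK inhibitors, most of which read near the brightness level.

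The promoters of the members, which the choice of genes did not use, differed between the phases in the motifs they held. RefSeq promoters (GRCm38.p6, 250 bases before to 50 after a gene's start) were matched by symbol for 39 of the 48 members, 41 promoters in all, and for 32851 promoters of the mouse. Aurkb, Ccna2, Ccnd1, Ccnd2, Ccne2, Gins2, Mcm4, Rfc2 and Tpx2 had no entry. The E2F motif was searched as TTTGGCGC, TTTCCCGC, TTTGCCGC and TTTCGCGC, the CHR element of mitotic genes as TTTGAA, and the CCAAT box bound by NF-Y as CCAAT. Each was searched on both strands, with overlapping matches counted. A match is a string of letters and is not evidence of a bound site. A missing match is likewise not evidence that a gene lacks a site, since other forms and positions were not searched.

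The arrangement is shown for Mcm6, an S phase gene whose arrays did not overlap, and for the mitotic genes Cdk1, which was nearly level, and Kif11, which was lower on every ventral array. Each is the 150 bases before the start, 5′ to 3′ on the gene's strand, with matches in capitals (ATTGG and TTCAAA are CCAAT and TTTGAA on the other strand).
Mcm6, chr1:128359706-128359855, minus strand: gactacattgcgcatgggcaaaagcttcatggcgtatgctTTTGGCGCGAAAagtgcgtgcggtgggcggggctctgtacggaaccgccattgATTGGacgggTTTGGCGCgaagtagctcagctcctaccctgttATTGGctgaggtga
Cdk1, chr10:69352913-69353062, minus strand: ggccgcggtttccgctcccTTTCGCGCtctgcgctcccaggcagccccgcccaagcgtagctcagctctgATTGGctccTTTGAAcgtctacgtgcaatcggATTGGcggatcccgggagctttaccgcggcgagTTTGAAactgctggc
Kif11, chr19:37376232-37376381, plus strand: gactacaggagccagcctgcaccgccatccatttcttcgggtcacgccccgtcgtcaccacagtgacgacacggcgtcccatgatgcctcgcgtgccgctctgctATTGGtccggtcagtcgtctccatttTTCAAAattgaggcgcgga

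The Mcm6 stretch held 3 E2F matches, a pair of them overlapping, and 2 CCAAT boxes, with 0 CHR matches. Cdk1 held 1 E2F match, 2 CHR matches and 2 CCAAT boxes, and Kif11 held 1 CHR match and 1 CCAAT box. Over the full promoters an E2F match was present in 6 of 17 S phase promoters (35.3%; Cdc6, Cdt1, Mcm3, Mcm5, Mcm6 and Mcm7), in 1 of 21 G2/M promoters (4.76%; Cdk1) and in 2.26% of all promoters. A CHR match was present in 16 of 21 G2/M promoters (76.2%), in 2 of 17 S phase promoters (11.8%) and in 17.9% of all. The CCAAT box was common to both phases, at 81.0% of G2/M and 64.7% of S phase promoters against 37.4% of all, and CHR and CCAAT together marked 66.7% of G2/M, 11.8% of S phase and 6.95% of all promoters.

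The 6 S phase genes with an E2F match had a median log2 fold change of −0.37 (−0.41 to −0.11), and 5 of them had separated arrays. The 10 without one had a median of −0.22 (−0.41 to 0.32), and 0 had separated arrays. Gins2, Mcm4 and Rfc2, with no promoter entry, are in neither group, and Gins2 had separated arrays. All 6 genes with an E2F match are licensing and firing genes, while of the 10 without one only Mcm2 and Cdc45 are. The E2F match can therefore not be told apart from that role. In the G2/M genes the median was −0.21 in 16 genes with a CHR match and −0.11 in 4 tested genes without it. This split was made after the values were seen and is given without a test. Outside the members, 448 tested genes had an E2F match, with 269 negative, a median of −0.06 and separated arrays, lower in ventral tissue, in 47 (10.5%), and 522 had CHR and CCAAT together, with 303 negative and a median of −0.05. Of 9349 tested non-members with a listed promoter, 4917 were negative, the median was −0.02 and 7.73% had such separated arrays.

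**Figure D5:**
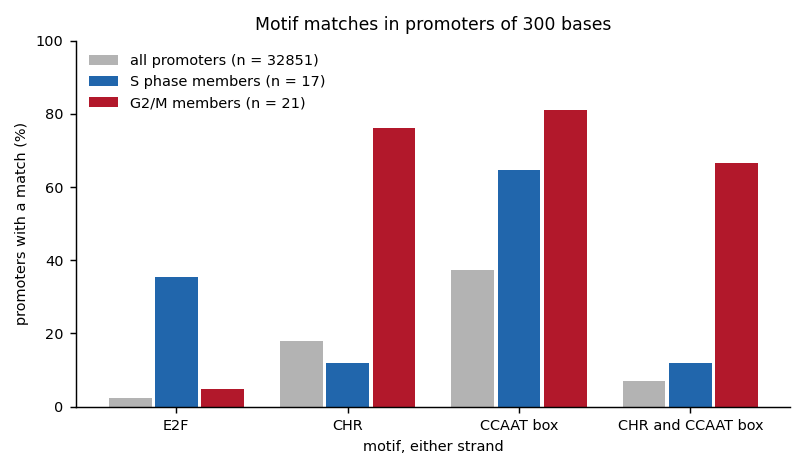
Share of promoters (%) with at least 1 match to each motif on either strand, for all promoters of the table, 17 S phase promoters and 21 G2/M promoters. E2F matches are at 35.3% in S phase against 4.76% in G2/M promoters, and CHR matches at 11.8% against 76.2%.

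Markers of other cell types moved between the tissues alongside the cell cycle genes. Sclerotome and early cartilage markers were mostly higher in dorsal tissue (5 of 6 tested negative, 2 called), with Foxc2 at 0.22 ± 0.18. The mean level of the 8 named genes was 5.96 to 6.70 on dorsal and 4.95 to 5.20 on ventral arrays, with Acan and Matn1 under the brightness level. Visceral mesenchyme markers were mostly higher in ventral tissue (7 of 8 positive, 3 called; mean level 5.40 to 5.78 against 6.67 to 7.62), with Foxf1 at −1.71 ± 0.72. Of all genes tested 0.515% were called and 52.3% were negative. All 8 erythroid markers tested were negative with a median of −0.56 and none called, with a mean level of 8.27 to 8.50 in dorsal and 7.66 to 7.96 in ventral tissue. Endothelial (8 of 8), smooth muscle (6 of 6) and macrophage markers (7 of 7 tested) were positive, and neuron markers were mixed (5 of 8 tested negative). None of these was called. Ptprc of the macrophage and Elavl4 of the neuron markers were under the brightness level. Of 10 erythroid markers listed 8 were named on the platform, and of 10 neuron markers 9. Of 8 notochord markers 7 were named and 4 were tested, of which 3 were positive, with Foxa2, Noto and Cdx2 under the brightness level. The part of these cells in the cell cycle differences was not tested.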

How the data were processed

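Total RNA of laser-dissected tissue was amplified (SPIA technology) before hybridisation, per the labels' protocols. The values deposited are log2 levels of whole probe sets. They were made with RMA in Affymetrix Expression Console per the submitters' processing notes. Their versions and the genome build behind the probe sets: not given in the sources used here. Array medians were 4.49 to 4.55. Of 24973 probe sets 24015 had 1 gene symbol, 0 had several and 958 are unnamed here.

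The ventral minus dorsal difference was estimated with limma 3.58.1 under R 4.3.3 (lmFit, eBayes without trend) over the 12028 named genes at or above the median level, with a fixed block for the replicate number and two-sided tests with Benjamini-Hochberg adjustment over all genes at 0.05. Every adjusted p of a single gene comes from that fit unless other settings are named. Every ± is the standard error of that fit unless called SD, and each of its tests had 6.41 degrees of freedom. The fit was tested on simulated data. Each tissue has 3 arrays, whose number limits the precision (median standard error 0.196).

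The block rests on the labels, which say that both tissues came from the same embryos. After the tissue means were taken off, same-numbered arrays had correlations of 0.0992, 0.0763 and 0.226 across genes, and arrays of different numbers −0.153 to 0.0805, so the pairing is only weakly borne out. The labels call the arrays biological replicates but do not say whether a number marks an embryo or how many embryos an array holds.

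The members and lists were chosen with earlier results of these data known. Array values are given for members with separated arrays, the 3 lowest and 3 highest fold changes, and the usual markers Ccnd1, Ccnd2, Ccnd3, Mki67, Pcna, Cdk1 and Top2a, and of each further list the 2 genes of lowest p are named.

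The other settings were the fit without the block, no brightness filter or a higher one, arrays shifted to the same median, cyclic loess between arrays, an intensity trend in eBayes, and each replicate left out. Promoter sequences came from RefSeq (GRCm38.p6) by gene symbol.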

Additional observations from a re-analysis of the deposited data

How the results depend on the processing

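Under 9 other settings and 2 more added after seeing the data (dorsal 3 or ventral 3 left out, without the block), 0 members passed, and the lowest adjusted p of a member was 0.0822. Without the replicate block the phase medians were the same (−0.25 in S phase, −0.18 in G2/M), as the design fixes. Over the settings that left out arrays, the gap between the G2/M and S phase medians ran from 0.01 to 0.09 and was 0.01 without replicate 3 and 0.02 without dorsal 3 alone. In the same settings Pcna ran from −0.46 to 0.07, Ung from −0.09 to 0.73, Rfc2 from −0.22 to 0.33 and Ccnd3 from −0.13 to 0.23, so their directions turned. The other 216 of 220 values of single genes kept their direction and their side of the threshold. Cyclic loess gave medians of −0.23 in S phase and −0.15 in G2/M, with 40 of 47 members negative. Over all genes 62 passed, against 10 without the brightness filter, 94 with an intensity trend, 40 without dorsal 3 and 18 without ventral 3. The cause of these changes was not tested. With 3 arrays per tissue and intervals of about ± 0.45 around a member's difference, differences of the size seen here were mostly not detectable gene by gene.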
